A study of Homo sapiens with 15 samples.

Results

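Glycolysis and pyruvate metabolism were followed through 33 genes, which were the rows of the deposited expression table whose gene name stood on a list of glycolytic enzymes, lactate handling proteins and the mitochondrial pyruvate machinery. All 33 were present among its 15790 genes. RNA had been sequenced in 15 libraries from cultured human cell lines, in 5 groups of 3. Fibroblast monocultures held fHDF/TERT166 cells, an immortalized dermal fibroblast line. Silk co-cultures held RPTEC/TERT1, an immortalized epithelial line from the renal proximal tubule, grown with those fibroblasts on LN/FN-silk membranes, and silk monocultures held RPTEC/TERT1 cells alone on the same membrane. LN/PC co-cultures and LN/PC monocultures were the same pair of cultures on LN/PC membranes. Epithelial cells were plated at 140000 per cm2, in co-cultures onto 14000 fibroblasts per cm2 that had been seeded 30 minutes earlier, and all cultures were collected at 14 days, with 3 to 8 membranes pooled per sample. Epithelial monocultures and co-cultures shared a medium with 5 mM glucose and 5 µg/ml insulin, whereas fibroblasts had been expanded in a different medium with more serum. The fibroblast samples are titled monocultures, but the extraction notes call them basolateral and say that they were scraped from the well bottom, so whether epithelial cells grew above them is not settled by the labels. Each line is a single immortalized line, so the spread between replicates holds no difference between donors.

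Glycolysis turns glucose into pyruvate in the cytosol. Hexokinases trap glucose in the cell, phosphofructokinase commits it to breakdown, and the PFKFB enzymes set the level of the small sugar phosphate that drives phosphofructokinase. Pyruvate is then either reduced to lactate by lactate dehydrogenase and exported, or carried into mitochondria and oxidized by the pyruvate dehydrogenase complex, which the PDK kinases switch off and the PDP phosphatases switch on. In the kidney, proximal tubule cells live mainly on mitochondrial oxidation and also make glucose, and in culture they commonly take on a more glycolytic pattern.

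Values are given as normalized counts. Library totals ran from 9.08 to 12.7 in units of 1e6 normalized counts, and 1 read was worth about 0.754 to 1.31 normalized counts. Of 20 listed tubular epithelial markers 19 were in the table, and 14 had a mean of at least 100 in each of the 4 groups with epithelial cells. In fibroblasts 14 had a mean under 10. CUBN and AQP1, which mark differentiated proximal tubule, had means of 61.9 and 10.7 in silk monocultures, against 41.0 and 10.3 in LN/PC monocultures. Both were higher in fibroblasts, at 151 and 6709, as were ANPEP (11041.5) and MME (8684). Of the 19 markers, 4 were called higher in fibroblasts than in epithelial monocultures and 15 lower. Over 112 fibroblast-restricted genes, the share of fibroblast RNA was 0.0239%, 0% and 0.113% in silk co-cultures and 13.9%, 9.81% and 15.2% in LN/PC co-cultures, a difference of -12.9 percentage points (exact two-sided permutation test, p = 0.1, the smallest that 3 against 3 allows). Taken from the summed levels of the same genes, it was 0.0987%, 0.074% and 0.182% in silk co-cultures and 22.4%, 14.5% and 25.8% in LN/PC co-cultures, a difference of -20.8 points (p = 0.1 by the same exact test). The median is used below unless stated, and a median below 0 was set to 0. Single genes spread widely, with quartiles of 6.7% to 22.7%, 4.3% to 15.1% and 9.2% to 26.1% in LN/PC co-culture replicates 1, 2 and 3. Both measures take fibroblasts in co-culture to have the profile of fibroblast monocultures, which was not tested. In bulk RNA, fewer fibroblasts and less RNA per fibroblast cannot be told apart. Transcripts of 15 mitochondrially encoded genes took 5.97% ± 0.501 of silk co-cultures, 5.16% ± 1.25 of silk monocultures, 2.37% ± 0.584 of the LN/PC co-cultures as against 2.48% ± 1.19 of LN/PC monocultures (SD, n = 3 each), and their part in the membrane differences given here was not tested. Cells on silk were collected by scraping and LN/PC membranes by cutting them out, so the membrane and the way of harvest cannot be told apart. Nothing in the labels states that replicates came from separate cultures, so p-values reflect no more than the spread of these samples, possibly a technical one.

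The 33 genes together took 3.44% ± 0.138 of the normalized counts in silk co-cultures, 3.10% ± 0.117 in silk monocultures, 3.01% ± 0.278 in LN/PC co-cultures, 2.62% ± 0.187 in LN/PC monocultures and 0.791% ± 0.0393 in fibroblast monocultures (SD, n = 3 each). All 33 passed the filter on low values. Genes were called at an adjusted p under 0.05 (limma, Benjamini-Hochberg over all genes tested), and differences are on the log2(normalized count + 1) scale with their standard error (SE). Between monocultures on silk and on LN/PC, 7 of the 33 genes were called, 6 higher and 1 lower on silk, where 11.7% of all 14433 genes were called (5.88% higher, 5.79% lower). Without LN/PC monoculture replicate 2 these counts were 11 members and 3208 genes, against 7 members and 1685 genes with all libraries. Leaving out one of the other 5 monoculture libraries gave 5 to 7 members and 695 to 1064 genes, the fewest without LN/PC monoculture replicate 3, and a fit of these 6 libraries alone gave 5 members and 754 genes. Between co-cultures on silk and on LN/PC, 13 were called, 9 higher and 4 lower on silk, against 36.1% of all genes (18.5% higher, 17.6% lower), so this count lies near the background. In the same comparison 17 of 18 fibroblast markers were lower in silk co-cultures, and with fibroblast RNA subtracted from the co-cultures 8 members were called higher and 5 lower, PDK1 being lost and LDHA gained, beside 2850 higher and 2112 lower genes (2675 and 2539 without the subtraction). Silk co-cultures differed from silk monocultures in 2 genes, HK2 and ENO2, both higher, against 3.78% of all genes (2.91% higher, 0.866% lower). No member was called lower there by limma, and 13 of 33 had an unadjusted p under 0.05 in either direction, as had 17.0% of all genes. LN/PC co-cultures differed from LN/PC monocultures in 5 genes, 4 higher and 1 lower, against 12.5% of all genes (7.8% higher, 4.72% lower). That count was 8 without LN/PC monoculture replicate 2 or 3, 2 without LN/PC monoculture replicate 1 or LN/PC co-culture replicate 2, and 3 without LN/PC co-culture replicate 1, silk monoculture replicate 2 or silk co-culture replicate 1 or 3. The co-culture difference itself differed between the membranes for 4 genes, 3 with a higher and 1 with a lower difference on silk, against 7.73% of all genes (3.15% higher, 4.59% lower). It was 2 genes without silk monoculture replicate 2 or 3, silk co-culture replicate 1 or 2, LN/PC monoculture replicate 3 or LN/PC co-culture replicate 1. Fibroblast monocultures differed from the epithelial monocultures in 27 genes, 2 higher and 25 lower, against 58.3% of 14502 genes (28% higher, 30.3% lower).

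The median log2 difference of the 33 genes was 0.26 between silk and LN/PC monocultures, beside 0.03 over all genes. It was 0.30 between silk and LN/PC co-cultures, beside 0.03. Between silk co-cultures and silk monocultures it was 0.30, beside 0.00 over all genes, and 27 of the 33 differences lay above 0. Between LN/PC co-cultures and LN/PC monocultures it was 0.18, beside -0.04. These comparisons share groups, so their medians are not independent of each other. When libraries were scaled on 467 epithelium-restricted genes instead of on all genes, LN/PC co-cultures had 20 members called, all higher than in LN/PC monocultures. Beside them 4249 of all genes were called (4114 higher, 135 lower), and the median of all genes moved to 0.40. With that scaling, 5 members were higher and 12 lower in silk than in LN/PC co-cultures. Among all genes 1007 were higher and 5700 lower, with a median of -0.42.

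**Figure D1:**
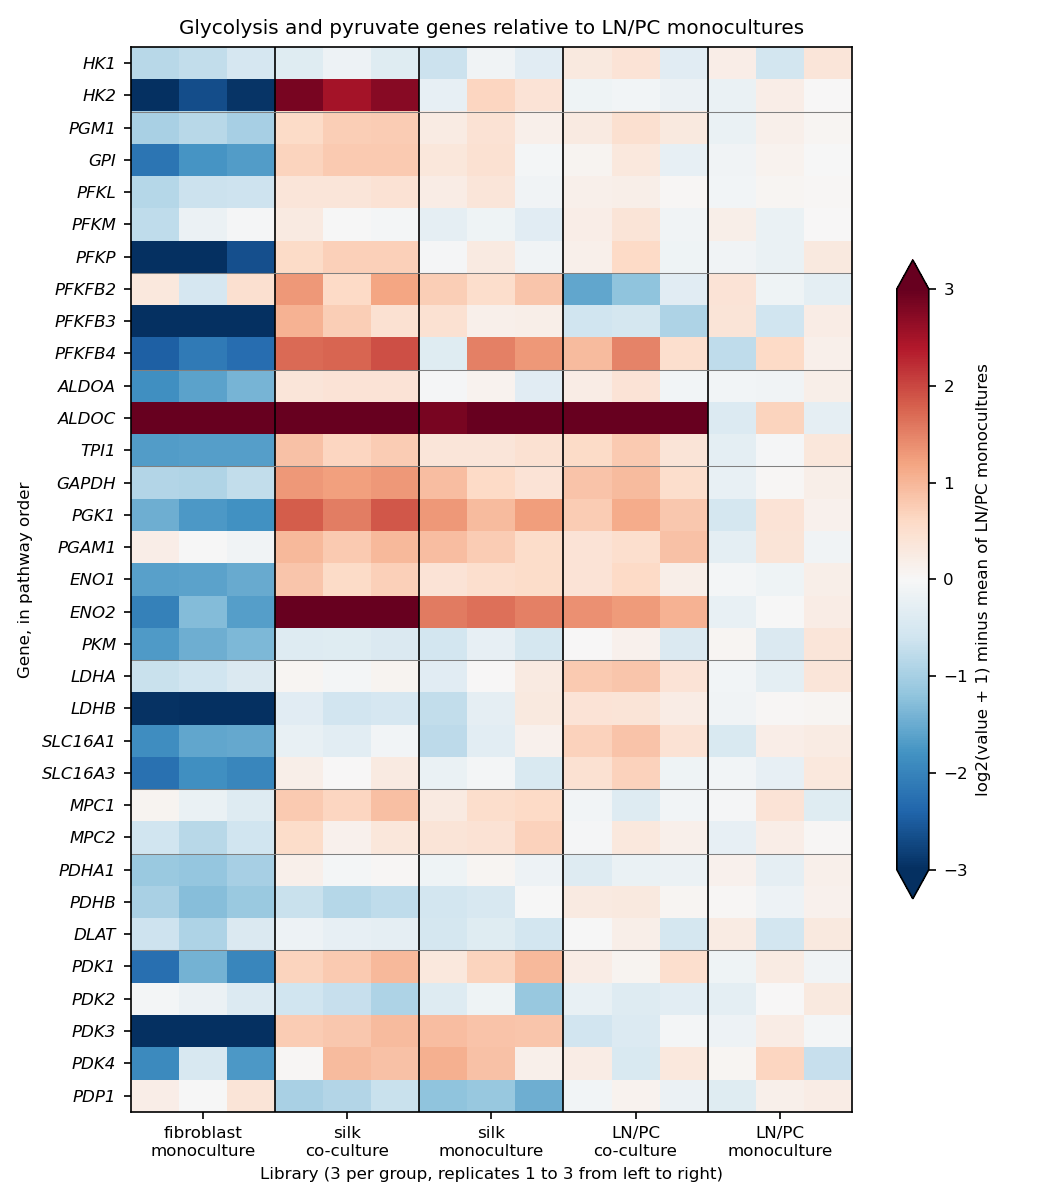
Level of each of the 33 genes (rows, in pathway order) in each of the 15 libraries (columns, 3 per group), as log2(normalized count + 1) minus the mean of the LN/PC monocultures. Colour is cut off at -3 and 3 log2 units. Within their own rows HK2 and ENO2 are darkest red in silk co-cultures, ALDOC is high in every group except LN/PC monocultures, and most rows are blue in fibroblasts.

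**Figure D2:**
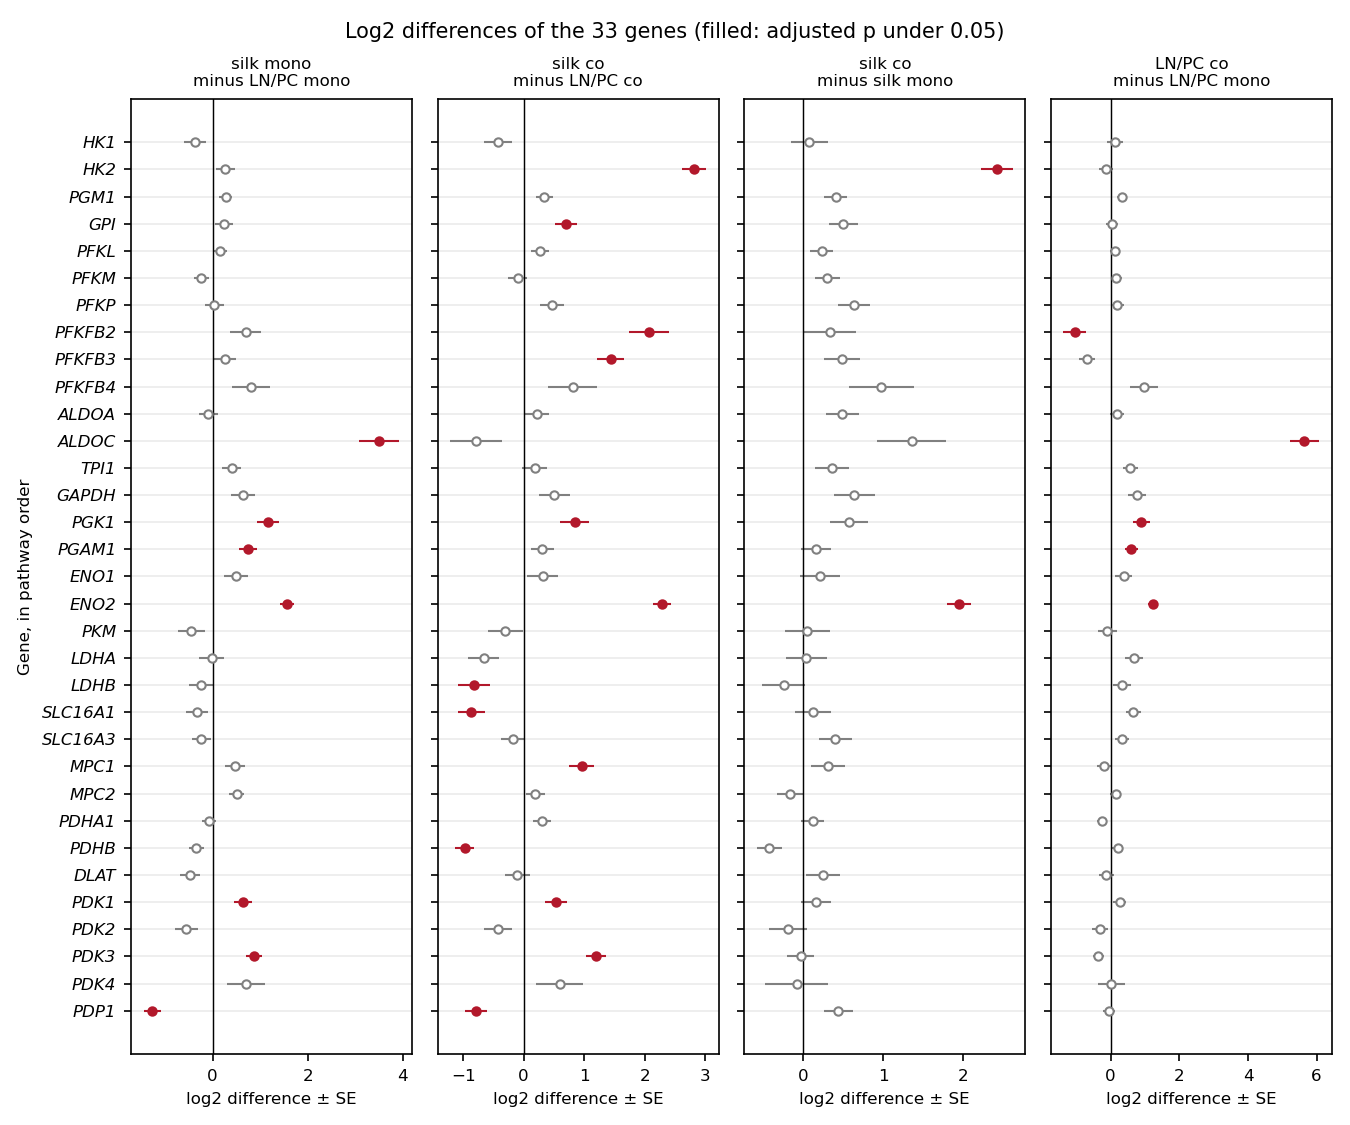
Log2 difference of each gene (points, bars show the standard error) in the 4 pairwise comparisons of cultures that hold epithelial cells. Filled red points have an adjusted p under 0.05 (limma), which holds for 7, 13, 2 and 5 of the 33 genes from left to right. Each panel has its own horizontal axis.

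The members called higher in co-culture on at least 1 membrane were HK2, ALDOC, PGK1, PGAM1 and ENO2. Their promoters are shown because HK2 and ENO2 were called together on silk, and the other 3 together with ENO2 on LN/PC. Each window runs from 250 bases before to 50 bases after a RefSeq transcript start (GRCh38.p14). The windows lie at chr2:74833877-74834176 for HK2 (plus strand), chr17:28576846-28577145 for ALDOC (minus strand), chrX:78103998-78104297 for PGK1 (plus strand), chr10:97427568-97427867 for PGAM1 (plus strand) and chr12:6914330-6914629 for ENO2 (plus strand). Each sequence is written 5′ to 3′ on the strand of its gene. Capitals mark ACGTG or GCGTG, on either strand (CACGT or CACGC), the core that hypoxia-inducible factors recognize, a family of which glycolytic genes are textbook targets.
HK2: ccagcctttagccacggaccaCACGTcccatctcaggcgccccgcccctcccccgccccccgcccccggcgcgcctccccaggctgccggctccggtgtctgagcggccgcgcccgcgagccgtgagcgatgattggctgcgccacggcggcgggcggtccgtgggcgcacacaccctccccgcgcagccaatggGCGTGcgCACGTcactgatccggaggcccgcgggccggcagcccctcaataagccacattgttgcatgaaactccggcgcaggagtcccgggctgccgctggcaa
ALDOC: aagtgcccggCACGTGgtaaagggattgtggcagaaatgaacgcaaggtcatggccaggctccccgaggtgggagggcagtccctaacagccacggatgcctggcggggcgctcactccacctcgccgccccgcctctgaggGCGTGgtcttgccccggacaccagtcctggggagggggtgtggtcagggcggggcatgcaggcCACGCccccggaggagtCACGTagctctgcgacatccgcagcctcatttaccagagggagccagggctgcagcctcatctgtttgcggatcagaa
PGK1: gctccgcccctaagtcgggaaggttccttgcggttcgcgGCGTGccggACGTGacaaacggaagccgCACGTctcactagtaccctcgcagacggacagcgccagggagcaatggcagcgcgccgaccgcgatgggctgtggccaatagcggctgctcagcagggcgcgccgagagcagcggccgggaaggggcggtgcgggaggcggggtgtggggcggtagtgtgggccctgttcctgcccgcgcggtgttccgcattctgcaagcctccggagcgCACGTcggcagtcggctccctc
PGAM1: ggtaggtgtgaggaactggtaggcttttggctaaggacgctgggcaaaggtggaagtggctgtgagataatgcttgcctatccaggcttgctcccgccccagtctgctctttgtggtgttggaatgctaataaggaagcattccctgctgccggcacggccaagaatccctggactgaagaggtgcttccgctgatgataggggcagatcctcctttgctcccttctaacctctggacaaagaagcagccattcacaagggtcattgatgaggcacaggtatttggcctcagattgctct
ENO2: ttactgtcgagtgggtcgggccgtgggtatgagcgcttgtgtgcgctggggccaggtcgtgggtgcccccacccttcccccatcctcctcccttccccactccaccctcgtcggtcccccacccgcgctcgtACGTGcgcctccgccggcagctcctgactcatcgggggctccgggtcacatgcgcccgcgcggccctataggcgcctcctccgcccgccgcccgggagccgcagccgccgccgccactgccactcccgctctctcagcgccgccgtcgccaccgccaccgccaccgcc

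The HK2 window holds 3 matches, the ALDOC window 5, the PGK1 window 4, the ENO2 window 1 and the PGAM1 window 0. In ALDOC the palindrome CACGTG counts once on each strand. RefSeq lists 2 windows for HK2, and the one not printed holds 6 matches. Promoter windows were found for 30 of the 33 genes, and SLC16A1, PDP1 and PFKFB2 had none. At least 1 match lay in 39 of the 62 windows of members (62.9%), against 48.4% of 35116 windows of all genes. Counted by gene, 28 of 30 members had a match in at least 1 window, against 52.4% of 27305 genes. But the 30 members had 62 windows, more per gene than all genes had, so more letters were searched per member. The 27305 genes also include some absent from the 15790 of the expression table, and base composition was not matched. A match describes letters in the window and not binding, and no measurement of a factor was made in these cultures.

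HK2, the insulin-responsive hexokinase that binds mitochondria, was higher in silk co-cultures than in any other group. HK2 had 4439, 3475 and 4068 normalized counts in silk co-cultures, 517, 963 and 817 in silk monocultures, 565, 579.7 and 543 in LN/PC co-cultures and 532, 706 and 619 in LN/PC monocultures. The lowest silk co-culture lay above the highest library of every other group, and the other 3 groups overlapped each other. The log2 difference was 2.42 ± 0.19 from silk monocultures (adjusted p = 1.69e-06) and 2.82 ± 0.19 from LN/PC co-cultures (adjusted p = 4.89e-08). LN/PC co-cultures differed from LN/PC monocultures by -0.13 ± 0.19 (adjusted p = 0.717). The interaction, the co-culture difference on silk minus that on LN/PC, was 2.55 ± 0.27 (adjusted p = 1.87e-05). Over 20 alternative settings the interaction ran from 2.18 to 2.74, with adjusted p 2.61e-06 to 0.000333. Fibroblasts had 74.2 to 96.6 normalized counts of HK2 and made up at most 0.113% of the RNA of a silk co-culture by the median of their markers, or 0.182% by the summed markers. On the list of 18 fibroblast markers, 3 were called higher in silk co-cultures than in silk monocultures (COL3A1, COL5A1 and PDGFRA). That was 16.7% of the list, where 2.91% of all genes were called higher. An unadjusted p under 0.05 (limma, either direction) was reached by 11 of the 18, beside 17.0% of all genes. Of the 18 log2 differences, 14 lay above 0 and 2 below. The summed level was 70528 to 76369 against 46316 to 53190. Most of it was VIM, also high in the epithelial monocultures, with means of 60933.5 against 37284.9 (limma, adjusted p = 0.123, not called). In silk co-cultures 2 to 6 markers were at 0, against 7 to 9 in silk monocultures, POSTN and TWIST1 in all libraries of both groups. HK1, the constitutive hexokinase of most tissues, had 2009.8, 2326 and 2015 normalized counts in silk co-cultures, 1648, 2387 and 2041 in silk monocultures, 3169, 3463 and 2048 in LN/PC co-cultures and 2950.2, 1762 and 3326 in LN/PC monocultures. Its groups overlapped in all 4 comparisons and none was called. HK1 was lower on silk in monocultures without LN/PC monoculture replicate 2 (-0.65, adjusted p = 0.0331; adjusted p 0.0331 to 0.714 over 20 settings) and in co-cultures without LN/PC co-culture replicate 3 (-0.65, adjusted p = 0.04; adjusted p 0.00842 to 0.45 over 21 settings).

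The next steps were less changed. GPI, which converts glucose 6-phosphate to fructose 6-phosphate, had 8488, 9211 and 9318 normalized counts in silk co-cultures, 6759, 7371 and 5127 in silk monocultures, 5658, 6702 and 4498 in LN/PC co-cultures and 5024, 5776 and 5335 in LN/PC monocultures. All 3 silk co-cultures were above all other libraries. GPI was called higher in silk than in LN/PC co-cultures (0.70 ± 0.18, adjusted p = 0.00745), a call that ended with the epithelial-gene scaling (0.25, adjusted p = 0.262; adjusted p 0.00293 to 0.262 over all 21 settings). Against silk monocultures GPI differed by 0.50 ± 0.18 (adjusted p = 0.147). PGM1, which links glycogen to glycolysis, was not called between any of these groups, and its differences ran from 0.28 to 0.41, with no overlap between the groups in any of the 4.

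Among phosphofructokinases, none of PFKL, PFKM and PFKP was called between groups that hold epithelial cells. PFKP, the platelet-type isoform, had 7742, 8422 and 8521 normalized counts in silk co-cultures, 5014, 6198 and 4771 in silk monocultures, 5742, 7803 and 4686 in LN/PC co-cultures and 4821, 4523 and 6321 in LN/PC monocultures. The silk co-cultures were above all silk monocultures and overlapped LN/PC co-cultures. PFKP differed between silk co-cultures and silk monocultures by 0.64 ± 0.20 (adjusted p = 0.0881) and passed the threshold when only those 6 libraries were fitted (0.64, adjusted p = 0.0103; adjusted p 0.0103 to 0.29 over 21 settings). Without LN/PC co-culture replicate 2 it was also called higher in silk than in LN/PC co-cultures (0.66, adjusted p = 0.0212; adjusted p 0.0212 to 0.952 over 21 settings). The differences of PFKL, the liver type, ran from 0.12 to 0.27, and those of PFKM, the muscle type, from -0.24 to 0.30.

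Of the 3 enzymes listed here that set fructose 2,6-bisphosphate, PFKFB3 and PFKFB2 were called higher in silk than in LN/PC co-cultures and PFKFB4 was not called. PFKFB3, an inducible isoform that mainly makes this activator, had 6577, 5350.4 and 4409 normalized counts in silk co-cultures, 4361, 3575 and 3638 in silk monocultures, 2124, 2204 and 1671 in LN/PC co-cultures and 4169, 2107 and 3727 in LN/PC monocultures. All silk co-cultures were above all LN/PC co-cultures, by 1.44 ± 0.22 (adjusted p = 0.000162). Between monocultures on the membranes the difference was 0.26 ± 0.22 (adjusted p = 0.464), with groups that overlapped. The co-culture difference was 0.48 ± 0.22 on silk (adjusted p = 0.285) and -0.69 ± 0.22 on LN/PC (adjusted p = 0.056), neither called. The LN/PC difference passed the threshold in 4 of 21 alternative settings (adjusted p 0.00118 to 0.454), among them leaving out LN/PC monoculture replicate 2 (-0.99, adjusted p = 0.00118). Their interaction was called at 1.17 ± 0.32 (adjusted p = 0.0319), but was lost in 10 of 20 alternative settings (adjusted p 0.000793 to 0.13), among them leaving out silk co-culture replicate 1 or 2, silk monoculture replicate 2 or 3, or replicate 1 or 3 of either LN/PC group.

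PFKFB2, an isoform best known in heart, had 170.0, 103 and 156 normalized counts in silk co-cultures, 115, 98 and 121 in silk monocultures, 22.2, 28.6 and 53.2 in LN/PC co-cultures and 90.6, 62.4 and 55.2 in LN/PC monocultures. LN/PC co-cultures were lowest of these 4 groups, with no library reaching those of LN/PC monocultures. PFKFB2 was higher in silk than in LN/PC co-cultures by 2.07 ± 0.32 (adjusted p = 0.000162). It was lower in LN/PC co-cultures than in LN/PC monocultures, with a log2 difference of -1.04 ± 0.32 (adjusted p = 0.0445), a call lost in 14 of 21 alternative settings (adjusted p 0.0104 to 0.193), among them leaving out LN/PC co-culture replicate 1 or 2, any LN/PC monoculture replicate except 3, any silk monoculture replicate, or silk co-culture replicate 1 or 3. PFKFB4, the testis-type isoform, had 805, 832 and 944 normalized counts in silk co-cultures, 192, 702 and 609 in silk monocultures, 476, 692 and 353 in LN/PC co-cultures and 145, 377 and 276 in LN/PC monocultures. Its differences ran from 0.81 to 0.98 in the 4 comparisons and none was called. Silk monoculture replicate 1 lay far below the other silk monocultures, and without it PFKFB4 was called higher in silk than in LN/PC monocultures (1.40, adjusted p = 0.0175; adjusted p 0.0175 to 0.559 over 20 settings). It was then also called higher in silk than in LN/PC co-cultures (0.81, adjusted p = 0.0356; adjusted p 0.00555 to 0.49) and in LN/PC co-cultures than in LN/PC monocultures (0.98, adjusted p = 0.0325; adjusted p 0.0167 to 0.439), the last also without LN/PC monoculture replicate 2.

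ALDOC, the aldolase isozyme best known from brain, was nearly absent from LN/PC monocultures. ALDOC had 45.2, 84.9 and 103 normalized counts in silk co-cultures, 17.5, 36 and 34.7 in silk monocultures, 130.0, 93.6 and 167 in LN/PC co-cultures and 0.915, 3.09 and 1.13 in LN/PC monocultures. LN/PC monocultures held about 6 reads over the 3 libraries, so a ratio of reads is given with its exact 95% interval, which covers counting error only. Silk monocultures held 93 reads, a ratio of 15.8 (6.98 to 44.1), and LN/PC co-cultures held 364 reads, a ratio of 63.4 (28.8 to 174). The fitted log2 differences were 3.50 ± 0.43 (adjusted p = 0.000115) and 5.64 ± 0.43 (adjusted p = 1.02e-07), and they ran from 0.84 to 3.84 and from 1.91 to 6.05 over the alternative settings, since they depend on the pseudocount and scale. Silk co-cultures were above silk monocultures in all libraries, by 1.36 ± 0.43 (adjusted p = 0.0971), which was not called. The co-culture difference was smaller on silk than on LN/PC, with an interaction of -4.29 ± 0.61 (adjusted p = 0.000247). ALDOC had 113, 89.7 and 77.1 normalized counts in fibroblast monocultures. A mixture of fibroblast and LN/PC monoculture RNA at the measured share would hold 13.6, of which 12.1 from fibroblasts (20.9 and 19.5 with the summed share). LN/PC co-cultures averaged 130.3 ± 36.9, and which cell type held the rest was not tested. ALDOA, the main aldolase of most tissues, was not called, with differences of -0.09 to 0.49. TPI1, the triose phosphate isomerase, was not called either (0.18 to 0.58). Between LN/PC co-cultures and LN/PC monocultures it passed the threshold in 3 alternative settings, with epithelial-gene scaling, with fibroblast RNA subtracted and without LN/PC monoculture replicate 3 (the last 0.75, adjusted p = 0.0218; adjusted p 0.00301 to 0.275 over 21 settings).

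ENO2, the enolase known as the neuronal isozyme, was the only member called in all 4 comparisons. ENO2 had 5027, 4509.9 and 4177 normalized counts in silk co-cultures, 1172, 1241 and 1129 in silk monocultures, 1023, 960.3 and 819 in LN/PC co-cultures and 342, 396 and 459 in LN/PC monocultures. The 4 groups did not overlap at any point, and stood in the order silk co-cultures, silk monocultures, LN/PC co-cultures, LN/PC monocultures. ENO2 was higher in silk than in LN/PC monocultures by 1.57 ± 0.15 (adjusted p = 1.72e-05) and in silk than in LN/PC co-cultures by 2.29 ± 0.15 (adjusted p = 2.33e-08). Co-culture was higher than monoculture by 1.95 ± 0.15 on silk (adjusted p = 1.04e-06) and by 1.23 ± 0.15 on LN/PC (adjusted p = 1.46e-05). None of these 4 calls was lost in any alternative setting. The co-culture difference was larger on silk, with an interaction of 0.72 ± 0.21 (adjusted p = 0.0429), a call lost in 14 of 20 alternative settings (adjusted p 0.0149 to 0.349), including the epithelial-gene scaling and leaving out any library except LN/PC monoculture replicates 1 and 2. ENO2 had 96.4, 160.5 and 125 normalized counts in fibroblast monocultures, fewer than any library with epithelial cells. ENO1, the common enolase, had means of 55992 ± 4859 in silk co-cultures, 48334 ± 2329.8 in silk monocultures, 45281 ± 6473 in the LN/PC co-cultures and 34483 ± 3874 in LN/PC monocultures, and was not called.

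PGK1, a glycolytic enzyme that makes ATP, had 27771, 22643 and 28675 normalized counts in silk co-cultures, 19237, 15183 and 18669 in silk monocultures, 13355, 16972 and 13788 in LN/PC co-cultures and 5391, 10444 and 8532 in LN/PC monocultures. Of these 4 groups silk co-cultures were highest, LN/PC monocultures were lowest, and the other two overlapped. PGK1 was higher in silk than in LN/PC monocultures by 1.17 ± 0.24 (adjusted p = 0.00577), a call kept in all 20 alternative settings. It was higher in silk than in LN/PC co-cultures by 0.84 ± 0.24 (adjusted p = 0.0115), lost with the epithelial-gene scaling and without silk co-culture replicate 3 (adjusted p 0.00159 to 0.196 over 21 settings). LN/PC co-cultures were above LN/PC monocultures by 0.90 ± 0.24 (adjusted p = 0.0187), lost without LN/PC monoculture replicate 1, without LN/PC co-culture replicate 2 and when only those 6 libraries were fitted (adjusted p 0.000732 to 0.106 over 21 settings). On silk the co-culture difference was 0.58 ± 0.24 (adjusted p = 0.213), with no overlap between the groups.

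PGAM1, the phosphoglycerate mutase of most tissues, had 5160.1, 4488 and 5164 normalized counts in silk co-cultures, 5021, 4460.1 and 3834 in silk monocultures, 3497, 3723 and 4845 in LN/PC co-cultures and 2145, 3429 and 2456 in LN/PC monocultures. Of these 4 groups LN/PC monocultures were lowest, and silk co-cultures and silk monocultures overlapped. It was higher in silk than in LN/PC monocultures by 0.75 ± 0.19 (adjusted p = 0.0183), lost in 5 of 20 alternative settings (adjusted p 0.00161 to 0.0788), which were the fit of those 6 libraries alone and leaving out silk monoculture replicate 1 or 2 or LN/PC monoculture replicate 1 or 3. It was higher in LN/PC co-cultures than in LN/PC monocultures by 0.60 ± 0.19 (adjusted p = 0.0442), lost in 12 of 21 settings (adjusted p 0.000761 to 0.193), among them leaving out any LN/PC or silk co-culture library, silk monoculture replicate 2, or LN/PC monoculture replicate 1 or 3. GAPDH, often used as a reference transcript, had 66119, 63158 and 66218 normalized counts in silk co-cultures, 50726, 40464 and 35647 in silk monocultures, 48133, 51996 and 38474 in LN/PC co-cultures and 22976, 27631 and 30294 in LN/PC monocultures. Its differences ran from 0.51 to 0.77 in the 4 comparisons, with no overlap between the compared groups, and none was called. Silk monocultures and LN/PC co-cultures, which were not compared, overlapped. The difference between LN/PC co-cultures and LN/PC monocultures (0.77 ± 0.26, adjusted p = 0.0601) passed the threshold in 7 of 21 alternative settings (adjusted p 0.00294 to 0.193). Among them were leaving out LN/PC monoculture replicate 2 or 3 or LN/PC co-culture replicate 3. PKM, the pyruvate kinase of most tissues, had 42049, 42859 and 40808 normalized counts in silk co-cultures, 37299.9, 46551 and 37950.2 in silk monocultures, 55661, 60487 and 40786 in LN/PC co-cultures and 57691, 40924 and 70753 in LN/PC monocultures, with all groups overlapping and no call.

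**Figure D3:**
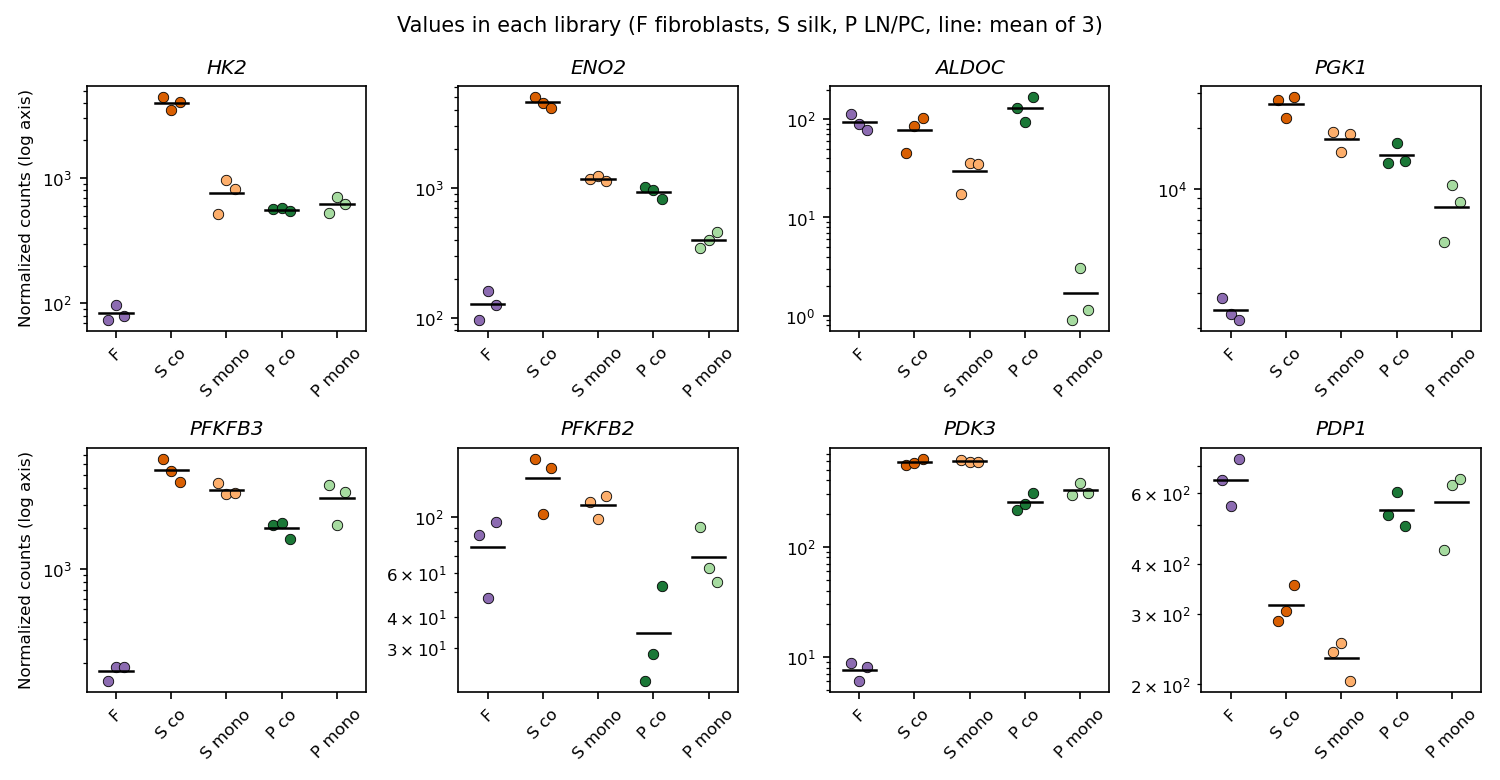
Normalized counts (log axis) of 8 genes in each library, by group: F fibroblast monocultures, S co silk co-cultures, S mono silk monocultures, P co LN/PC co-cultures and P mono LN/PC monocultures. Points are libraries and lines are means of 3. HK2 is high in silk co-cultures alone, ENO2 falls into 4 separate levels among cultures with epithelial cells, and ALDOC lies at 0.915 to 3.09 in LN/PC monocultures.

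LDHB and SLC16A1, which handle lactate, were lower in silk than in LN/PC co-cultures. LDHB, the lactate dehydrogenase subunit that favours lactate use, had 30389, 25938 and 27304 normalized counts in silk co-cultures, 23244, 31979 and 47527 in silk monocultures, 51646, 50717 and 45009 in LN/PC co-cultures and 36016, 39621 and 40545 in LN/PC monocultures. All silk co-cultures were below all LN/PC co-cultures, while silk monocultures reached from below the lowest silk co-culture to above the lowest LN/PC co-culture. LDHB was lower in silk than in LN/PC co-cultures, with a log2 difference of -0.82 ± 0.27 (adjusted p = 0.0262), lost in 5 of 21 alternative settings (adjusted p 0.00238 to 0.0905), which left out silk co-culture replicate 1, 2 or 3 or LN/PC co-culture replicate 1 or 2. SLC16A1, the monocarboxylate transporter MCT1, had 3068, 2868 and 3351 normalized counts in silk co-cultures, 2075, 2846 and 3877 in silk monocultures, 5729, 6505 and 4816 in LN/PC co-cultures and 2615, 4107 and 4228 in LN/PC monocultures. Its LN/PC co-cultures were the highest libraries, and silk co-cultures were below them, with a log2 difference of -0.87 ± 0.22 (adjusted p = 0.00685), a call kept in all 21 alternative settings. LN/PC co-cultures were above LN/PC monocultures by 0.66 ± 0.22 (adjusted p = 0.0626), short of the threshold. The difference passed it once the fibroblast share of RNA was subtracted (0.82, adjusted p = 0.0436; adjusted p 0.00323 to 0.272 over 21 settings), and also without silk monoculture replicate 1 or 3 or LN/PC monoculture replicate 2 or 3.

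LDHA, the subunit that favours making lactate, had 31094, 28710.3 and 31629 normalized counts in silk co-cultures, 23774, 30336 and 35984 in silk monocultures, 51931, 53511 and 40099 in LN/PC co-cultures and 28469.9, 24736 and 38573 in LN/PC monocultures. All silk co-cultures were below all LN/PC co-cultures, with a log2 difference of -0.66 ± 0.26 (adjusted p = 0.0551), which was not called. That difference passed the threshold in 8 of 21 alternative settings (adjusted p 0.00407 to 0.15), among them leaving out LN/PC co-culture replicate 3 or LN/PC monoculture replicate 2 or 3. LDHA differed by 0.04 ± 0.26 between silk co-cultures and silk monocultures (adjusted p = 0.965) and by 0.68 ± 0.26 between LN/PC co-cultures and LN/PC monocultures (adjusted p = 0.0997), the last called without LN/PC monoculture replicate 3 (0.86, adjusted p = 0.0355; adjusted p 0.00702 to 0.289 over 21 settings). SLC16A3, the lactate exporter MCT4, was not called, with differences of -0.24 to 0.40.

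Pyruvate enters mitochondria through the carrier built from MPC1 and MPC2. MPC1 had 277, 248 and 298 normalized counts in silk co-cultures, 193, 229 and 242 in silk monocultures, 150.4, 122 and 151 in LN/PC co-cultures and 155, 211 and 124 in LN/PC monocultures. Every silk co-culture was above every LN/PC co-culture, and LN/PC groups overlapped. MPC1 was higher in silk than in LN/PC co-cultures by 0.96 ± 0.21 (adjusted p = 0.00267), lost only with the epithelial-gene scaling (0.51, adjusted p = 0.0749; adjusted p 0.000897 to 0.0749 over 21 settings). MPC2 was not called, with differences of -0.16 to 0.50, but MPC1 (0.67, adjusted p = 0.0335; adjusted p 0.0335 to 0.485 over 20 settings) and MPC2 (0.60, adjusted p = 0.0204; adjusted p 0.0204 to 0.19) were higher in silk than in LN/PC monocultures once LN/PC monoculture replicate 2 was left out. The pyruvate dehydrogenase complex takes over from the carrier. PDHB, the beta subunit of its first enzyme, had 1049.5, 933 and 982 normalized counts in silk co-cultures, 1147, 1199 and 1676 in silk monocultures, 2020.4, 2046 and 1755 in LN/PC co-cultures and 1719, 1507 and 1822 in LN/PC monocultures. Silk co-cultures were the lowest of these 4 groups and overlapped none of them. PDHB was lower in silk than in LN/PC co-cultures, with a log2 difference of -0.97 ± 0.16 (adjusted p = 0.000207), kept in all 21 alternative settings, and differed from silk monocultures by -0.42 ± 0.16 (adjusted p = 0.162). PDHA1, the alpha subunit that the kinases phosphorylate, had 1222, 1061 and 1127 normalized counts in silk co-cultures, 1013, 1138 and 984 in silk monocultures, 848, 952 and 967 in LN/PC co-cultures and 1205, 907 and 1219.7 in LN/PC monocultures. Its differences ran from -0.26 to 0.30 with no call. DLAT, the second enzyme of the complex, was not called either (-0.48 to 0.25). It was lower in silk than in LN/PC monocultures without LN/PC monoculture replicate 2 (-0.75, adjusted p = 0.0083; adjusted p 0.0083 to 0.429 over 20 settings), and in silk than in LN/PC co-cultures with the epithelial-gene scaling (-0.55, adjusted p = 0.0466; adjusted p 0.0466 to 0.898 over 21 settings).

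PDK3 and PDP1, opposing regulators of the complex, differed between the membranes. PDK3, a kinase that switches the complex off, had 549.9, 572 and 631 normalized counts in silk co-cultures, 619, 586 and 582 in silk monocultures, 216, 246 and 309.7 in LN/PC co-cultures and 293, 377 and 310.0 in LN/PC monocultures. All 6 silk libraries were above all 6 LN/PC libraries, and on each membrane co-cultures and monocultures overlapped. PDK3 was higher on silk by 0.87 ± 0.17 in monocultures (adjusted p = 0.00384) and by 1.19 ± 0.17 in co-cultures (adjusted p = 5.17e-05). PDP1, the phosphatase that switches the complex back on, had 288, 306 and 354 normalized counts in silk co-cultures, 241, 254 and 204 in silk monocultures, 530.0, 605 and 497 in LN/PC co-cultures and 433, 628 and 651 in LN/PC monocultures. All silk libraries were below all LN/PC libraries. PDP1 was lower on silk, with log2 differences of -1.27 ± 0.18 in monocultures (adjusted p = 0.000416) and -0.78 ± 0.18 in co-cultures (adjusted p = 0.00361). The calls of PDK3 and PDP1 were kept in all alternative settings, 20 for monocultures and 21 for co-cultures.

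PDK1, a kinase known to respond to low oxygen, had 563, 613 and 695 normalized counts in silk co-cultures, 440.1, 565 and 693 in silk monocultures, 417, 375 and 505 in LN/PC co-cultures and 324, 421 and 328 in LN/PC monocultures. It was higher in silk than in LN/PC monocultures by 0.65 ± 0.19 (adjusted p = 0.0352) and in silk than in LN/PC co-cultures by 0.53 ± 0.19 (adjusted p = 0.0352), with no overlap in either. The first call was lost in 7 of 20 settings (adjusted p 0.0112 to 0.123), among them leaving out silk monoculture replicate 2 or 3, LN/PC monoculture replicate 1 or 3, or silk co-culture replicate 2. The second was lost in 6 of 21 settings (adjusted p 0.0128 to 0.765), among them leaving out silk co-culture replicate 2 or 3 or LN/PC co-culture replicate 1 or 2. With the epithelial-gene scaling its difference between co-cultures was 0.08, adjusted p = 0.765. PDK2, a widely expressed kinase, was not called (-0.55 to -0.19), and neither was PDK4, the kinase induced by fasting (-0.08 to 0.70).

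Ratios of isozymes within a library depend little on its scaling, except for low genes, since 1 was added to each value. They are not ratios of molecules, since values were not divided by transcript length, and are compared only between libraries. For 9 pairs in 5 comparisons, 45 in all, exact two-sided permutation tests gave adjusted p-values of at least 0.214, and 3 libraries against 3 cannot go below p = 0.1. The log2 ratio of HK2 to HK1 was 0.91 ± 0.30 in silk co-cultures, -1.43 ± 0.21 in silk monocultures, -2.33 ± 0.36 in the LN/PC co-cultures and -2.07 ± 0.65 in LN/PC monocultures (SD, n = 3 each). All silk co-cultures lay above all other libraries, and the LN/PC groups overlapped. The log2 ratio of ENO2 to ENO1 was -3.61 ± 0.12 in silk co-cultures, -5.35 ± 0.11 in silk monocultures, -5.59 ± 0.14 in the LN/PC co-cultures and -6.43 ± 0.14 in LN/PC monocultures, with no overlap in any of the 4 pairwise comparisons. The log2 ratio of ALDOC to ALDOA was -7.12 ± 0.67 in the LN/PC co-cultures and -12.57 ± 0.67 in LN/PC monocultures. In the latter ALDOC had only 0.915 to 3.09 normalized counts, so that ratio rests largely on the added 1. The ratio of LDHA to LDHB overlapped between silk and LN/PC co-cultures, at 0.13 ± 0.09 and -0.03 ± 0.13.

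**Figure D4:**
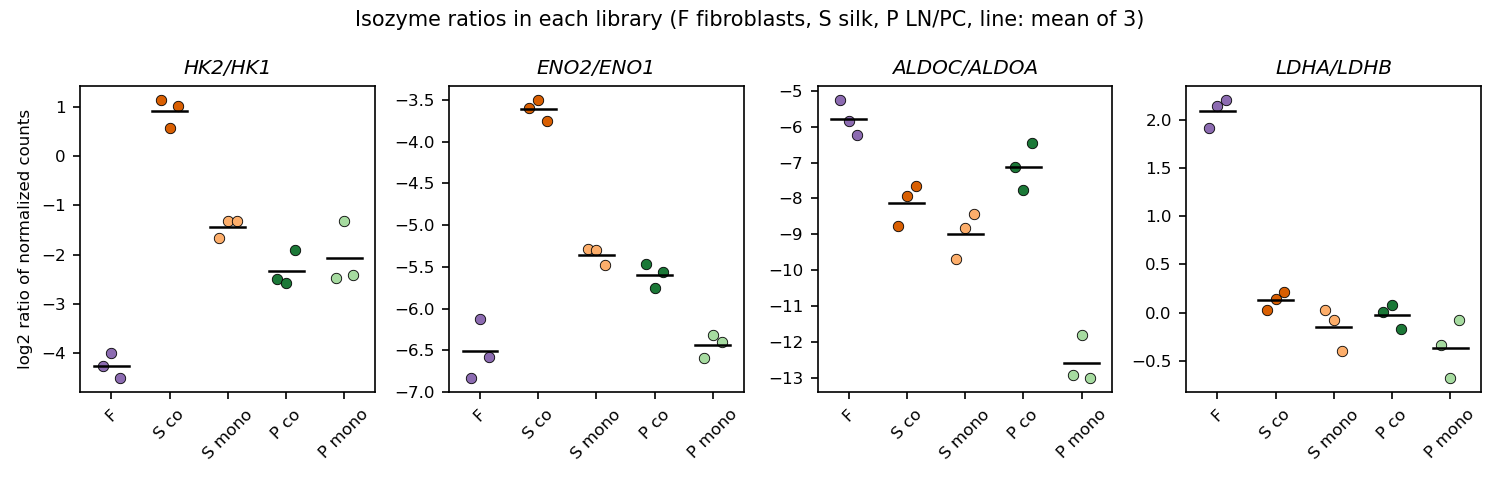
Log2 ratio of isozyme pairs in each library, from normalized counts with 1 added. Groups are F fibroblast monocultures, S silk and P LN/PC, with lines at means of 3. HK2 to HK1 is above 0 in silk co-cultures alone, and LDHA to LDHB averages 2.09 in fibroblasts and lies between -0.68 and 0.21 elsewhere. Each panel has its own axis.

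In LN/PC co-cultures the fibroblast RNA moved with the comparison. All 18 fibroblast markers were called higher in LN/PC co-cultures than in LN/PC monocultures, with a summed level of 275214 to 424618 against 28881 to 37437 and with 0 against 8 to 10 markers at 0. Each LN/PC co-culture was therefore set against the level that a mixture of fibroblast and LN/PC monoculture RNA would give at its own fibroblast share. ENO2 was 2.29 to 2.83 times that level in the 3 libraries, PGK1 1.82 to 2.24 times and GAPDH 1.53 to 2.02 times. TPI1 stood at 1.44 to 1.81 times and SLC16A1 at 1.47 to 1.91 times. PFKFB4 stood at 1.51 to 2.83 times, LDHA at 1.38 to 1.81 times and LDHB at 1.34 to 1.52 times. HK2 stood at 1.01 to 1.04 times the mixture. PFKFB3 was below it, at 0.585 to 0.734 times, and so was PFKFB2, at 0.316 to 0.755 times. PDK2, MPC1 and PDHA1 were also below it in all 3 libraries. The ratio was not taken over all genes, so the members above or below the mixture have no background to be set against. For members lower in fibroblasts than in LN/PC monocultures, the mixture lies below the LN/PC monoculture level, which raises the ratio. Of the 33 log2 differences between fibroblasts and the epithelial monocultures, 30 were below 0. With the share from the summed markers, an alternative chosen after seeing the data, ENO2 stood at 2.49 to 3.02 times the mixture, PGK1 at 1.95 to 2.32 times and HK2 at 1.07 to 1.13 times. PFKFB3 then stood at 0.663 to 0.808 times and PFKFB2 at 0.314 to 0.748 times, and ALDOC at 5.85 to 6.59 times, against 8.74 to 10.7 times with the median share. When the fibroblast part was subtracted before the fit, 9 members were called between LN/PC co-cultures and LN/PC monocultures, 8 higher and 1 lower. Among all genes 632 were higher and 626 lower. PGM1, TPI1, GAPDH and SLC16A1 were added to the 5 members called without the subtraction.

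**Figure D5:**
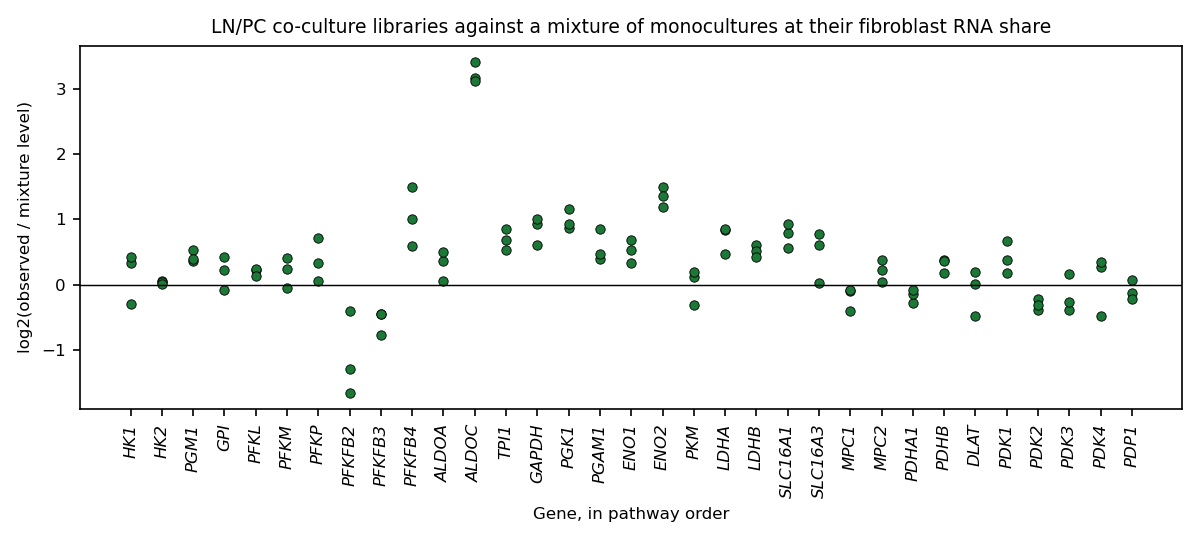
Observed level of each gene in the 3 LN/PC co-culture libraries over the level expected from a mixture of fibroblast and LN/PC monoculture RNA at that library's fibroblast share, as a log2 ratio. Points are libraries and the line marks equality. ALDOC, ENO2, PGK1, GAPDH and PFKFB4 are among the genes above the line in all 3 libraries. PFKFB2, PFKFB3, PDHA1, MPC1 and PDK2 lie below it in all 3.

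Fibroblasts had less of most glycolytic transcripts than epithelial cells, in which the 3 silk and 3 LN/PC monocultures were averaged. Here and above, ± after a mean is the SD of the libraries (n = 3 per group) and ± after a difference its SE. The median of the 33 log2 differences was -1.28, beside -0.02 over all genes, and 25 members were lower where 30.3% of all genes were. PDK3 had 8.75, 6.04 and 8.18 normalized counts in fibroblast monocultures against 293 to 619 in epithelial monocultures, a difference of -5.68 ± 0.18 (adjusted p = 2.8e-10). PFKFB3 had 147, 188 and 187 normalized counts in fibroblast monocultures against 2107 to 4361 (-4.34 ± 0.20, adjusted p = 4.95e-09). LDHB had 4974, 4466 and 4813 normalized counts in fibroblast monocultures against 23244 to 47527 (-2.91 ± 0.22, adjusted p = 3.98e-07). These groups did not overlap, and neither did those of PFKP (-3.08 ± 0.18), HK2 (-3.01 ± 0.20), PFKFB4 (-2.70 ± 0.40), ENO2 (-2.45 ± 0.17) and PGK1 (-2.26 ± 0.20), the other members with the lowest log2 differences.

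LDHA and HK1 were close to the threshold in fibroblasts. LDHA had 18782, 19726 and 22198 normalized counts in fibroblast monocultures against 23774 to 38573 in epithelial monocultures (-0.56 ± 0.22, adjusted p = 0.0476), lost in 8 of 15 alternative settings (adjusted p 0.0108 to 0.137), among them leaving out any fibroblast library, silk monoculture replicate 2 or 3, or LN/PC monoculture replicate 1 or 3. HK1 differed by -0.51 ± 0.20 (adjusted p = 0.0475), lost in 8 of 15 settings (adjusted p 0.00226 to 0.142), among them leaving out fibroblast replicate 1 or 2, silk monoculture replicate 2 or 3, or LN/PC monoculture replicate 1 or 3. Only ALDOC and PDP1 were called higher in fibroblasts. ALDOC differed by 3.44 ± 0.35 (adjusted p = 5.09e-06), with 93.4 ± 18.5 normalized counts in fibroblasts. PDP1 had 647, 558 and 731 normalized counts in fibroblast monocultures against 204 to 651 (0.83 ± 0.16, adjusted p = 0.00105), overlapping the LN/PC monocultures and lying above all silk monocultures. PFKM, PFKFB2, PGAM1, MPC1, DLAT and PDK2 were not called, though PGAM1 was lower without LN/PC monoculture replicate 1 (-0.42, adjusted p = 0.0402; adjusted p 0.0402 to 0.259 over 15 settings), MPC1 without LN/PC monoculture replicate 3 (-0.49, adjusted p = 0.0445; adjusted p 0.0445 to 0.336) and DLAT without LN/PC monoculture replicate 2 (-0.57, adjusted p = 0.0033; adjusted p 0.0033 to 0.271). The log2 ratio of LDHA to LDHB was 2.09 ± 0.15 in fibroblasts against -0.26 ± 0.27 in epithelial monocultures (SD, n = 3 and 6). Cell type and culture surface, and possibly medium, differed together in this comparison and cannot be told apart.

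A list of 41 further genes of the pathway was chosen beside the members, of which 26 were in the table. Between silk and LN/PC monocultures 2 were higher on silk and 2 lower, where 11.7% of all genes were called. ME1, the cytosolic malic enzyme, averaged 327 ± 85.5 normalized counts in silk and 112 ± 20.8 in LN/PC monocultures (1.52 ± 0.24, adjusted p = 0.000895), and ME3, a mitochondrial malic enzyme, was also higher (1.73 ± 0.51, adjusted p = 0.0377). The ME3 call was lost in 7 of 20 alternative settings (adjusted p 0.0146 to 0.151), among them leaving out silk monoculture replicate 1 or 3, silk co-culture replicate 1 or 3 or LN/PC monoculture replicate 1. PC, the pyruvate carboxylase that feeds glucose synthesis, averaged 164 ± 6.72 normalized counts in silk and 506 ± 223 in LN/PC monocultures (-1.53 ± 0.29, adjusted p = 0.00388). BSG, the chaperone of lactate transporters, was the other gene that was lower on silk (-0.88 ± 0.21, adjusted p = 0.0129), a call lost without LN/PC monoculture replicate 3 (adjusted p 0.00159 to 0.0593).

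Between silk and LN/PC co-cultures 5 of the 26 were higher and 5 lower on silk, which is 38.5% and near the 36.1% of all genes. HKDC1, a hexokinase-like enzyme, averaged 2236 ± 214 normalized counts in silk and 526 ± 92.2 in LN/PC co-cultures (2.10 ± 0.19, adjusted p = 8.1e-07). ME1 (1.63), LDHD (1.50), a mitochondrial D-lactate dehydrogenase, and SLC16A7 (1.28), the pyruvate transporter MCT2, were the next highest. PCK2, the mitochondrial PEP carboxykinase, averaged 113 ± 10.7 normalized counts in silk and 419 ± 54.6 in LN/PC co-cultures (-1.87 ± 0.29, adjusted p = 0.00016). PGM3 (-0.92), of the hexosamine pathway, ME2 (-0.73), a mitochondrial malic enzyme, and ADPGK (-0.70), a kinase that phosphorylates glucose with ADP, were also lower on silk. The calls of PGM3 and ME2 were each lost in 4 of 21 settings (adjusted p 0.00172 to 0.112 and adjusted p 0.00189 to 0.119), among them leaving out silk co-culture replicate 2 or 3 or LN/PC co-culture replicate 1, and for ME2 also silk co-culture replicate 1.

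Silk co-cultures were above silk monocultures in 2 of the 26 genes and below them in none (limma, 5 of 26 at an unadjusted p under 0.05), where 3.78% of all genes were called and 17.0% had such a p. HKDC1 averaged 2236 ± 214 normalized counts in silk co-cultures and 1229.8 ± 215 in silk monocultures (0.87 ± 0.19, adjusted p = 0.0149), and SLC16A7 averaged 979 ± 225 in silk co-cultures and 451 ± 115 in silk monocultures (1.13 ± 0.21, adjusted p = 0.00604). The SLC16A7 call was lost without silk co-culture replicate 3 (adjusted p 0.00256 to 0.0578), and the HKDC1 call without silk co-culture replicate 1 or 3 or silk monoculture replicate 2 or 3 (adjusted p 0.00207 to 0.095). LN/PC co-cultures were above LN/PC monocultures in 4 genes and below them in 3, where 12.5% of all genes were called. The higher genes were ME3 (2.15), PCK2 (1.09), PGM3 (0.95) and PGM2 (0.51), and the lower ones PC (-0.96), HKDC1 (-0.87) and PGAM5 (-0.73), a mitochondrial phosphatase. Of these calls, ME3 lost its own without LN/PC monoculture replicate 1 or LN/PC co-culture replicate 3 (adjusted p 0.0019 to 0.0547), and PCK2 without LN/PC monoculture replicate 1 or LN/PC co-culture replicate 1 or 2 (adjusted p 0.000783 to 0.0961). PGM3, PGM2, PC and PGAM5 lost theirs in 9, 12, 10 and 8 of 21 settings, in all 4 cases also without LN/PC co-culture replicate 1. HKDC1 was called in opposite directions in co-culture on silk and on LN/PC, the second lost with the epithelial-gene scaling and with fibroblast RNA subtracted (adjusted p 0.0012 to 0.095). In fibroblasts 4 of the 26 were higher and 9 lower than in epithelial monocultures, 13 in all, against 58.3% of all genes, and HKDC1 was at 0 in all 3 fibroblast libraries.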

How the data were processed

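Poly-A RNA of 15 samples was sequenced with a strand-keeping kit, per the labels' protocols. Salmon 1.10.3 quantified the reads and DESeq2 was used, per the submitters' processing notes. Build, annotation and settings: not given in the sources used here. In the table of 15790 genes that the authors deposited, values are log2-like and bottom out at 5.53664461 in all libraries, as a variance-stabilizing transformation would leave them. Normalized counts were recovered by inverting it, that lowest value being its constant. Each library's median ratio to the gene-wise geometric mean, a check of this, came to 1.01175, whereas powers of 2 of the deposited values gave 0.994 to 1.002. The planned design foresaw a linear or log table, and a fit of the deposited values as they stand is among the alternatives. Low values were within 0.1 of a whole read in 35.5% to 56.9% of cases, so whole reads were not recovered and no count model was fitted. Libraries held about 8.59 to 13.5 assigned reads in units of 1e6. Intervals and read counts cover counting error only.

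The trend method of limma (limma 3.58.1 under R 4.3.3) was applied to log2(value + 1), which understates changes of low genes, for genes with at least 10 in at least 3 libraries, with Benjamini-Hochberg adjustment. One fit held the 12 libraries with epithelial cells (14433 genes, 4 pairwise comparisons and their interaction) and one the 9 monocultures (14502 genes). The fit of 12 libraries was tested on simulated data, for the comparison of silk with LN/PC monocultures alone. Fibroblast RNA shares are medians, set to 0 where negative, over 112 genes. Their fibroblast mean reached 1000 and was 100 or more times that of either epithelial monoculture. The epithelium-restricted genes used as an alternative scaling have a mean of at least 100 in both epithelial monocultures and at least 20 times fibroblasts. Alternatives were other pseudocounts (10, 0.5), no filter, upper-quartile scaling, scaling on epithelial genes, subtraction of fibroblast RNA, a fit of the compared libraries alone, a replicate block and leaving out each library. Counts of 4 pseudogene rows of members never exceeded 42.4, or 0.244% of the parent gene, but how reads of near-identical copies were split is unknown. The members, the further list and the tests were chosen with earlier results of these data known. Full statistics are given for at most the 8 largest called members per direction, values per library for members called with an absolute log2 difference of at least 0.58 in a pairwise comparison and for the steps that define the pathway, and the rest by ranges. Promoter sequences are from RefSeq (GRCh38.p14).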

Additional observations from a re-analysis of the deposited data

Results flagged for a closer look

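The difference between co-culture and monoculture itself differed between silk and LN/PC for 4 members and 4 further pathway genes, by the interaction term of the limma fit (Benjamini-Hochberg over 14433 genes). These are 4 of 33 and 4 of 26, where 7.73% of all genes were called. A positive interaction means a larger co-culture difference on silk. It was 2.55 ± 0.27 for HK2 (adjusted p = 1.87e-05), 1.17 ± 0.32 for PFKFB3 (adjusted p = 0.0319), 0.72 ± 0.21 for ENO2 (adjusted p = 0.0429) and -4.29 ± 0.61 for ALDOC (adjusted p = 0.000247). Among the further genes it was 1.75 ± 0.27 for HKDC1 (adjusted p = 0.000534), 1.07 ± 0.30 for SLC16A7 (adjusted p = 0.0397), -1.70 ± 0.41 for PCK2 (adjusted p = 0.0171) and -2.63 ± 0.72 for ME3 (adjusted p = 0.0322). The interaction calls of HK2, ALDOC and HKDC1 were kept in all alternative settings. Those of PFKFB3 and ENO2 were lost in 10 of 20 and 14 of 20 settings. That of PCK2 was lost without LN/PC co-culture replicate 1 (adjusted p 0.00353 to 0.0578). That of SLC16A7 was lost in 10 of 20 settings (adjusted p 0.0211 to 0.147), among them leaving out silk monoculture replicate 1 or 2, silk co-culture replicate 2 or 3, LN/PC monoculture replicate 1 or LN/PC co-culture replicate 1 or 3. That of ME3 was lost in 8 of 20 (adjusted p 0.0159 to 0.105), among them leaving out any LN/PC co-culture, silk co-culture replicate 2 or 3, silk monoculture replicate 3 or LN/PC monoculture replicate 1. The ME3 interaction ran from -2.99 to -0.93 over these settings, and ME3 had only 3.87 to 15.3 normalized counts in LN/PC monocultures. The fibroblast share of RNA differed between the co-cultures, at 0% to 0.113% on silk and 9.81% to 15.2% on LN/PC.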

How the results depend on the processing

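No log2 difference of a called member changed sign in any alternative. Among member calls, 949 repeats kept and 96 lost the call, and among member differences not called 2769 stayed so and 80 passed. Where no count of settings is given for a difference not called, the settings named may not be all that passed. With only the compared libraries fitted, 6 members and 1174 genes (784 higher, 390 lower) were called between silk co-cultures and silk monocultures, PFKP, ALDOC, GAPDH and PGK1 being added, 754 genes between silk and LN/PC monocultures, and 2 members and 1088 genes (825 higher, 263 lower) between LN/PC co-cultures and LN/PC monocultures. Scaling on epithelial genes gave 20 members and 4249 genes (4114 higher, 135 lower) in the last of these, 17 members (5 higher, 12 lower) and 6707 genes (1007 higher, 5700 lower) between silk and LN/PC co-cultures, 573 higher and 1045 lower genes between silk and LN/PC monocultures (849 and 836 as reported), 550 and 77 between silk co-cultures and silk monocultures (420 and 125 as reported), and an interaction for 3 members with 161 higher and 1288 lower genes. Subtracting fibroblast RNA gave 9 members (8 higher, 1 lower) between LN/PC co-cultures and LN/PC monocultures, with 632 higher and 626 lower genes, and an interaction for 2 members and 676 genes (380 higher, 296 lower). In that comparison of LN/PC cultures, members split 4 higher to 2 lower with a pseudocount of 10 or upper-quartile scaling, 4 to 0 with no filter and 5 to 0 on the deposited log2 values. Leaving out each library in turn gave 5 to 11 members and 695 to 3208 genes between silk and LN/PC monocultures, with the highest counts without LN/PC monoculture replicate 2, which added HK1, MPC1, MPC2 and DLAT. It gave 10 to 15 members and 3415 to 5732 genes between silk and LN/PC co-cultures, and 2 members throughout and 207 to 819 genes between silk co-cultures and silk monocultures. It gave 2 to 8 members and 753 to 2007 genes between LN/PC co-cultures and LN/PC monocultures, 2 to 4 members and 465 to 1359 genes for the interaction, 25 to 28 members and 6865 to 8673 genes for fibroblasts, and -14.5 to -11.8 percentage points for the difference in fibroblast share, which was -20.8 with summed markers. Same-numbered replicates did not deviate together (correlations of -0.254 to 0.189, over 0.1 in 2 of 18 pairs), and with the replicate number as a block the members called were 7, 13, 2, 4, 3 and 27, and the genes 1317, 4811, 443, 1558, 942 and 8365, in the order monocultures by membrane, co-cultures by membrane, silk by culture, LN/PC by culture, interaction and fibroblasts. The cause of these shifts was not tested. Depth limits ALDOC in LN/PC monocultures, where about 6 reads were counted in all.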
